A study of Homo sapiens with 8 samples.

Results

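The oncofetal liver genes are expressed in the fetal liver, are low in the adult liver and are often switched on again in liver cancer. The 10 genes considered were AFP, DLK1, GPC3, IGF2, H19, PEG10, IGF2BP1, IGF2BP3, LIN28B and SALL4. A probe set, a group of short probes on the array read as one value, was taken as a member where the platform annotation pairs it with exactly 1 gene symbol and that symbol is one of these 10. This rule found 16 of the 54675 probe sets on the array, for 8 of the 10 genes. Of those 8 genes, 3 had 1 probe set each (AFP, LIN28B and SALL4) and 5 had several (DLK1, GPC3, PEG10, IGF2BP1 and IGF2BP3). IGF2 and H19 had none: the 3 probe sets of IGF2 are also paired with the read-through gene INS-IGF2, and the 2 of H19 with the microRNA gene MIR675, which lies inside it. These 5 are described separately as shared probe sets.

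RNA came from Huh7 and Hep-3B, 2 human hepatoma cell lines, in which KLHL23 was knocked down. KLHL23 belongs to the Kelch-like family, many of whose members bring substrates to a ubiquitin ligase, and the study asked which genes differ once it is reduced. There were 4 groups of 2 arrays each: Huh7-shKLHL23 and its control Huh7-shLuc, and Hep-3B-shKLHL23 and its control Hep-3B-shLuc. All 4 groups had been transduced with a lentivirus at a multiplicity of infection of 2 and put under puromycin 48 h later, so the controls also carry a hairpin, directed at luciferase. The labels name 1 hairpin label per target and a selected stable population per group, and they leave unsaid whether the 2 arrays of a group stand for separate cultures. The p-values below therefore describe the spread between these arrays, which may be technical. All values below are log2 expression values on the scale deposited by the authors, on which a step of 1 is a doubling. Differences were tested with limma across all 54675 probe sets, with Benjamini-Hochberg adjustment, and a probe set was called at an adjusted p under 0.05. Counts at an unadjusted p under 0.05 are also given. The share of all probe sets or genes at that threshold is not given, so these counts cannot be read as an excess.

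The probe set paired with KLHL23 alone, 241682_at, read 5.78 and 5.88 in Huh7-shKLHL23 arrays, against 7.89 and 7.87 in Huh7-shLuc arrays. The knockdown was called there (difference -2.05, adjusted p = 0.00392, limma). In Hep-3B this probe set read 7.21 and 6.15 in shKLHL23 arrays, against 7.81 and 7.84 in shLuc arrays (difference -1.14, adjusted p = 0.0765, limma). That difference was called with array weights (adjusted p = 0.0371), with an intensity trend (0.0484) and without Hep-3B-shKLHL23 replicate 1 (-1.67, adjusted p = 0.00112), and was -0.61 and not called without replicate 3. Hep-3B-shKLHL23 replicate 1 thus kept 65.5% of the control level and replicate 3 kept 31.4%. Other KLHL23 probe sets are shared with PHOSPHO2-KLHL23. Of these, 213610_s_at differed by -2.40 in Huh7 (adjusted p = 0.00283) and by -1.17 in Hep-3B (adjusted p = 0.0884, limma). The dim 217505_at (0.07 in Huh7 and 0.12 in Hep-3B) and 237756_at (0.32 and -0.23) were not called. Of 8 hepatocyte markers, 7 were measured and read between 7.78 and 13.8 on all 8 arrays, while the pluripotency and germ cell markers NANOG, DPPA4 and DDX4 stayed below the array median on every array. Other cell types' markers were partly above it: 1 of 3 blood, 2 of 4 endothelial and 2 of 4 stellate cell and fibroblast markers were below the median on all arrays, and the highest values of these lists were 6.75, 7.18 and 6.91. limma called 0 of the markers outside the hepatocyte list in either knockdown, with an unadjusted p under 0.05 for 0 to 2 per list. Of the 7 hepatocyte markers, 1 was called higher in Huh7 and 1 in Hep-3B. The background of genes called higher was 4.46% and 0.718%. An unadjusted p under 0.05 was found for 2 of the 7 in Huh7 and 3 in Hep-3B (limma). The medians of the 8 arrays lay between 4.56 and 4.60. The 3' minus 5' difference of the ACTB control probe sets, a sign of RNA integrity, moved with the groups: it was 0.525 and 0.546 in Huh7-shKLHL23, against 0.873 and 0.833 in Huh7-shLuc, and 0.737 and 0.753 in Hep-3B-shKLHL23, against 0.442 and 0.537 in Hep-3B-shLuc. The same difference for GAPDH overlapped between the Huh7 groups, at 0.148 and 0.112 in Huh7-shKLHL23, against 0.132 and 0.0887 in Huh7-shLuc. In Hep-3B it was 0.2225 and 0.236 in shKLHL23 arrays, against 0.117 and 0.120 in shLuc arrays. The part of RNA integrity in the differences described here was not tested.

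In the fetus several of these genes serve growth. Insulin-like growth factor 2 and the proteins that bind its mRNA drive proliferation, alpha-fetoprotein is the main plasma protein before albumin takes over, and LIN28B holds back the let-7 microRNAs, whose rise accompanies maturation. Several members are imprinted, that is, expressed from one parental copy: DLK1 and PEG10 from the paternal copy, as IGF2 is, and H19 from the maternal copy. In hepatocellular carcinoma AFP and GPC3 are used as a serum and a tissue marker.

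Knockdown of KLHL23 in Huh7 was accompanied by lower DLK1 and lower LIN28B, and no other oncofetal gene passed the test there. Of the 16 probe sets, 2 were called lower and 0 higher in Huh7-shKLHL23 than in Huh7-shLuc, beside a background of 8.49% of all probe sets called in either direction and 4.67% called lower. In Hep-3B, 0 of the 16 were called, beside a background of 1.14% called, and the smallest adjusted p was 0.0745. limma gave an unadjusted p under 0.05 for 4 of the 16, a threshold for which no background is given. The test of the difference between the 2 knockdown effects called the same DLK1 and LIN28B probe sets, both lower in Huh7, beside a background of 0.933% called in either direction and 0.488% called lower. The median difference of the 16 probe sets was 0.02 in Huh7, against 0.01 over all probe sets, and -0.04 in Hep-3B, also against 0.01. The arrays of the knockdown and control groups did not overlap for 9 of the 16 in Huh7, where the background was 49.2%, and for 12 in Hep-3B, where it was 49.8%.

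**Figure D1:**
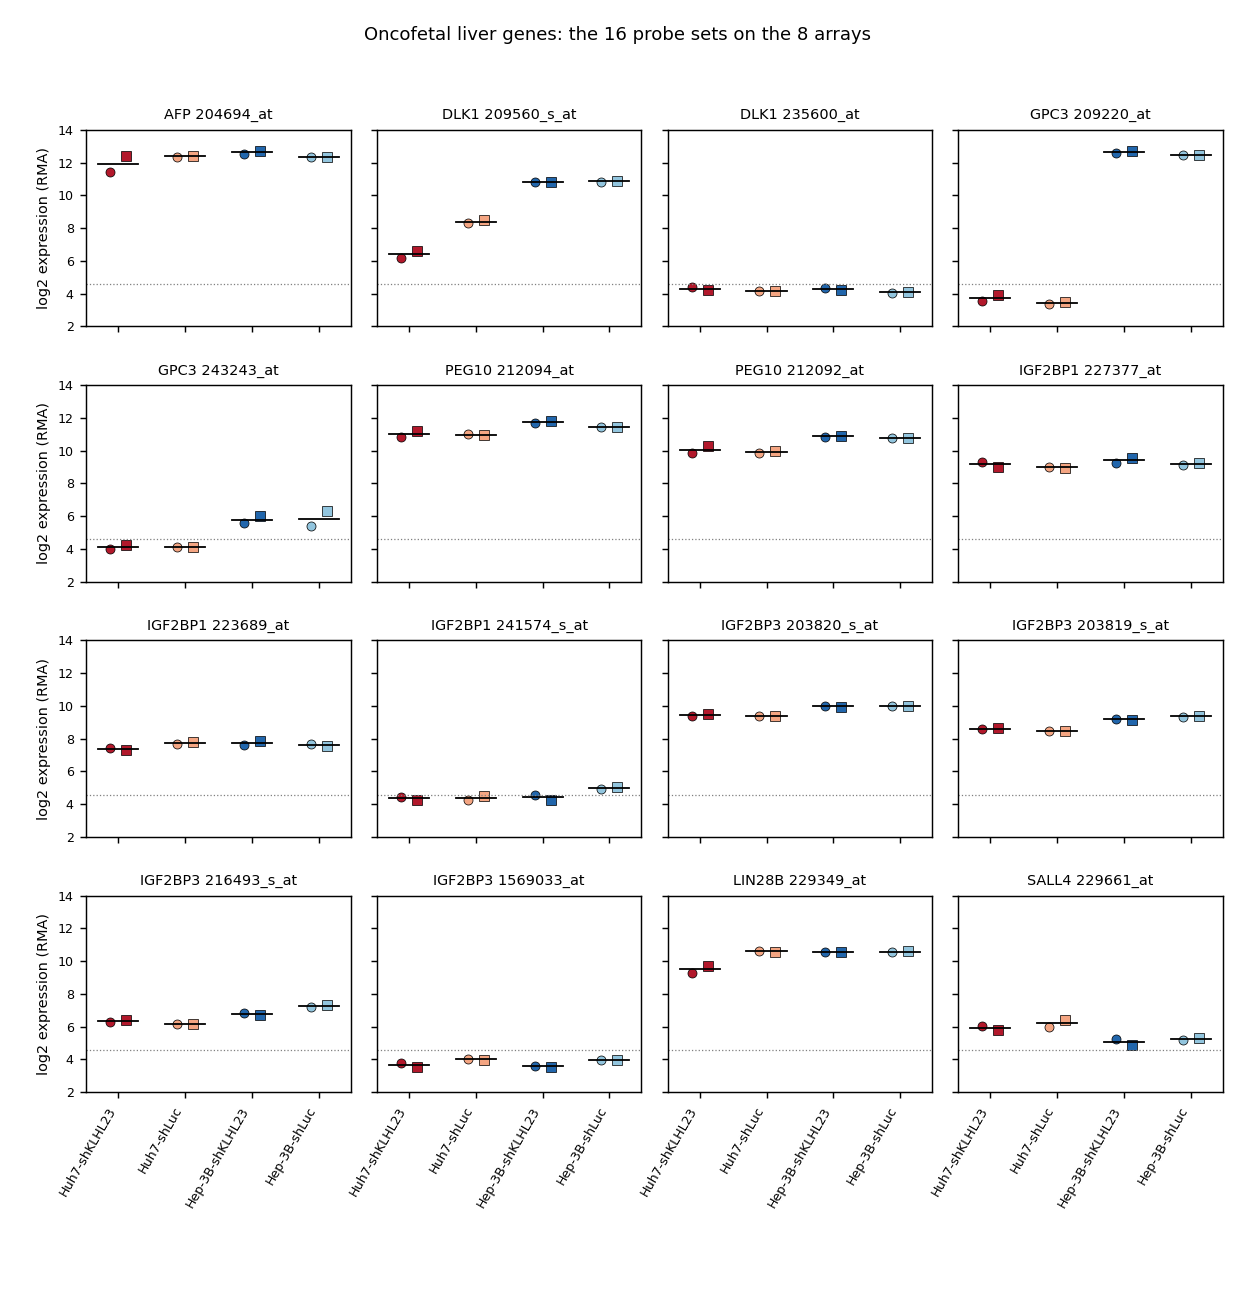
Log2 expression (RMA) of the 16 probe sets of the oncofetal genes on the 8 arrays; circles are replicate 1, squares replicate 3, bars the group means and the dotted line the median of the arrays. DLK1 209560_s_at lies at 6.19 and 6.62 in Huh7-shKLHL23, against 8.30 and 8.47 in Huh7-shLuc, and GPC3 209220_at separates the 2 lines.

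DLK1 encodes a membrane protein related to the Notch ligands that marks hepatoblasts, the progenitors of the fetal liver. Its probe set 209560_s_at read 6.19 and 6.62 in Huh7-shKLHL23 arrays, against 8.30 and 8.47 in Huh7-shLuc arrays. In Hep-3B it read 10.81 and 10.83 in shKLHL23 arrays, against 10.85 and 10.88 in shLuc arrays. The 4 groups stood apart, with Hep-3B-shLuc highest, then Hep-3B-shKLHL23, Huh7-shLuc and Huh7-shKLHL23, although the 2 Hep-3B groups lay close together. In Huh7, DLK1 fell by 1.98 (SE 0.14, adjusted p = 0.0006, limma, 95% interval -2.30 to -1.66), to 25.3% of the control mean. The 2 knockdown arrays were at 21.8% and 29.4% of that mean. In Hep-3B the difference was -0.05 (SE 0.14, adjusted p = 0.930, limma), with an interval of -0.37 to 0.27. The effects differed between the lines by -1.94 (SE 0.20, adjusted p = 0.0112, limma, interval -2.39 to -1.48). Leaving out Huh7-shLuc replicate 3 raised the adjusted p of this last difference to 0.0782, the highest of any array left out, and the call was also lost without Huh7-shLuc replicate 1, either Hep-3B-shLuc array or Hep-3B-shKLHL23 replicate 3. In bulk RNA, fewer DLK1-expressing cells and less DLK1 RNA per cell cannot be told apart.

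The second DLK1 probe set, 235600_at, read 4.42 and 4.19 in Huh7-shKLHL23 arrays, against 4.18 and 4.16 in Huh7-shLuc arrays, and 4.35 and 4.24 in Hep-3B-shKLHL23 arrays, against 4.05 and 4.12 in Hep-3B-shLuc arrays. It was below the array median on all 8 arrays, and neither the knockdowns (differences of 0.14 and 0.21) nor the lines (0.09) were called. The 2 probe sets of DLK1 thus did not give the same picture. MEG3, the imprinted non-coding RNA gene that neighbours DLK1, had 10 probe sets of its own. Of these, limma called 0 in either knockdown, with an unadjusted p under 0.05 for 1 in each. The background was 8.49% of all probe sets called in Huh7 and 1.14% in Hep-3B. Every MEG3 probe set except the brightest was below the array median on all 8 arrays. The brightest read 5.07 to 5.32, with differences of 0.07 in Huh7 and 0.10 in Hep-3B. Most of these probe sets were dim, so the count cannot tell whether MEG3 RNA differed.

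LIN28B encodes an RNA-binding protein that stops the processing of let-7 precursors. Its single probe set, 229349_at, read 9.30 and 9.73 in Huh7-shKLHL23 arrays, against 10.63 and 10.58 in Huh7-shLuc arrays. Hep-3B read 10.53 and 10.54 in shKLHL23 arrays, against 10.57 and 10.60 in shLuc arrays. Both Huh7-shKLHL23 arrays lay below the other 6, which spanned 10.53 to 10.63. In Huh7, LIN28B fell by 1.09 (SE 0.14, adjusted p = 0.0034, limma, 95% interval -1.40 to -0.78), to 46.9% of the control mean, with 40.4% and 54.4% in the single arrays. The Hep-3B difference was -0.05 (adjusted p = 0.913, limma, interval -0.36 to 0.26). The test of the difference between the lines gave -1.04 (SE 0.19, adjusted p = 0.048, limma, interval -1.48 to -0.60). That call was lost in 8 of 16 alternatives, among them each array left out other than Huh7-shKLHL23 replicate 3, with an adjusted p of up to 0.19.

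The RefSeq table (GRCh38.p14) holds 10 mature human microRNAs that carry a let-7 name or are grouped with them (miR-98-5p and miR-202-3p), at 13 places in the genome. They are shown because LIN28B is known for holding back let-7, although the arrays do not measure their mature forms. Of the 10, 9 share the seed GAGGUAG at bases 2 to 8, the stretch that pairs with a target mRNA, and miR-202-3p differs. Examples are shown 5′ to 3′ with the seed in capitals.
hsa-let-7b-5p: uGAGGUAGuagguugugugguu
hsa-let-7g-5p: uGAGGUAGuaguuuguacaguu
hsa-miR-98-5p: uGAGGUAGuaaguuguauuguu
hsa-miR-202-3p: aGAGGUAUagggcaugggaa
They lie at chr22:46113691-46113712 (plus strand), chr3:52268336-52268357 (minus strand), chrX:53556299-53556320 (minus strand) and chr10:133247538-133247557 (minus strand), in the order printed.

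LIN28B has 2 start sites in the RefSeq promoter table (GRCh38.p14), and both windows, 250 bases before to 50 after the start, are shown because LIN28B was called in Huh7. The first lies at chr6:104940715-104941014 and the second at chr6:104956857-104957156, both on the plus strand. Which of them the probe set reads was not tested. Capitals mark the E-box CACGTG, the motif bound by MYC and related factors.
LIN28B first start: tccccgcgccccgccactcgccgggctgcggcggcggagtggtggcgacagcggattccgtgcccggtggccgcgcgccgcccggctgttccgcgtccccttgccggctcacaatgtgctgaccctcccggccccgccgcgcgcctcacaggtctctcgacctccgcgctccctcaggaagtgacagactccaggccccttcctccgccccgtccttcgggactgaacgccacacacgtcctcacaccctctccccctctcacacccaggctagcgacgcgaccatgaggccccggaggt
LIN28B second start: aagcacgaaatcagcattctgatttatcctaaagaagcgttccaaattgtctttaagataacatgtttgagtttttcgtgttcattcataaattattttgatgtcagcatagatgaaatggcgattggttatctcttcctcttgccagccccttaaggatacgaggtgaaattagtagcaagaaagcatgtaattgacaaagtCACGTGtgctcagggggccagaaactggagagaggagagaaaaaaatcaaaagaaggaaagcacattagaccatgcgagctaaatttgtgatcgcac
The first window holds 37 CG pairs, at least as many as in 90.1% of the 35116 promoters of the table, and no CACGTG. The second holds 8 CG pairs and 1 CACGTG at -47, a motif found on either strand in 7.26% of all promoters. Neither window holds TATAAA or GTTAA, the other motifs searched on both strands.

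The let-7 targets and partners of LIN28B and of the IGF2BP proteins formed a list of 24 genes, of which 22 were measured. In Huh7, 5 of them were lower and 0 higher after knockdown, beside a background of 6.2% of genes called lower and 4.46% called higher (1 probe set per gene), with a list median of -0.15, against -0.0003 over all genes. The largest differences were in MYCN (-1.33, adjusted p = 0.0161), E2F5 (-1.03, adjusted p = 0.00275) and MYC (-0.83, adjusted p = 0.0231, limma), which are regulators of cell growth and the cell cycle. The other 2 were HMGA2 (-0.39) and TRIM71 (-0.46), let-7 targets named after their values were seen. Their Hep-3B values, and whether their calls held with an array left out, are not given here. In Hep-3B limma called 0 of the 22, beside a background of 0.956% of genes called, with an unadjusted p under 0.05 for 8. The list median there was 0.03, against 0.02 over all genes. MYCN was at -0.67, E2F5 at -0.46 and MYC at -0.82. The difference between the lines was not called for any of these (adjusted p of 0.183 or above, limma). Only the E2F5 call of the first 3 in Huh7 held with each array left out in turn: without Huh7-shLuc replicate 1 or 3 or Huh7-shKLHL23 replicate 1, the MYCN and MYC calls were lost, and that of MYC also without Huh7-shKLHL23 replicate 3.

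IGF2BP1 and IGF2BP3 are fetal RNA-binding proteins that stabilise IGF2, MYC and other mRNAs. None of their 7 probe sets was called in either knockdown. The IGF2BP3 probe set 203820_s_at read 9.38 and 9.48 in Huh7-shKLHL23, against 9.37 and 9.40 in Huh7-shLuc, and 10.02 and 9.94 in Hep-3B-shKLHL23, against 10.02 and 10.02 in Hep-3B-shLuc. The knockdown groups of each line overlapped their controls (differences of 0.05 and -0.04).

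For IGF2BP3 216493_s_at the Hep-3B arrays read 6.84 and 6.70 with shKLHL23, against 7.17 and 7.29 with shLuc. This difference of -0.46 (SE 0.11, adjusted p = 0.0745, limma) had the smallest adjusted p of the 16 probe sets in Hep-3B, and its Huh7 difference was 0.17. It was called in Hep-3B with dim probe sets left out, with an intensity trend, and with array weights. The difference between the lines, 0.63, had an adjusted p of 0.097 (limma). IGF2BP3 203819_s_at showed 8.58 and 8.65 in Huh7-shKLHL23, against 8.45 and 8.44 in Huh7-shLuc, and 9.20 and 9.16 in Hep-3B-shKLHL23, against 9.35 and 9.36 in Hep-3B-shLuc. Its differences of 0.17 and -0.17 had opposite signs, and neither was called. The fourth, 1569033_at, was below the array median on all 8 arrays, with differences of -0.32 in Huh7 and -0.36 in Hep-3B that were not called.

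IGF2BP1 227377_at showed 9.29 and 9.02 in Huh7-shKLHL23, against 9.02 and 8.97 in Huh7-shLuc, and 9.26 and 9.57 in Hep-3B-shKLHL23, against 9.13 and 9.24 in Hep-3B-shLuc. Its differences of 0.16 and 0.23 were not called. For 223689_at the Huh7 arrays read 7.40 and 7.33 with shKLHL23, against 7.68 and 7.77 with shLuc, a difference of -0.36 (SE 0.11, adjusted p = 0.0844, limma) that was called with dim probe sets left out and with an intensity trend, while in Hep-3B it was 0.15. The third, 241574_s_at, was dim, below the array median on 6 arrays, and differed by -0.05 in Huh7 and by -0.56 in Hep-3B (adjusted p = 0.0948, limma). The 3 probe sets of IGF2BP1 thus had differences of mixed sign in each line.

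AFP, the fetal plasma protein, lay far above the array median on all 8 arrays. Its probe set read 11.41 and 12.40 in Huh7-shKLHL23 arrays, against 12.38 and 12.39 in Huh7-shLuc arrays, and 12.56 and 12.72 in Hep-3B-shKLHL23 arrays, against 12.35 and 12.35 in Hep-3B-shLuc arrays. Replicate 1 of Huh7-shKLHL23 was at 50.9% of the control mean and replicate 3 at 101%. The difference in Huh7 was -0.48 (SE 0.25, adjusted p = 0.312, limma, interval -1.05 to 0.09). It was -0.98 (adjusted p = 0.00458, limma) without Huh7-shKLHL23 replicate 3 and 0.01 (adjusted p = 0.964) without replicate 1, so 1 array decided the value. In Hep-3B the difference was 0.29 (adjusted p = 0.662, limma). Without Huh7-shKLHL23 replicate 3 the difference between the lines was -1.27 (adjusted p = 0.0161), against -0.77 (adjusted p = 0.390) with all arrays.

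The promoter of AFP, from RefSeq at chr4:73435971-73436270 (GRCh38.p14, plus strand), is shown because this gene is the classical target of liver transcription factors. Capitals mark the TATA box TATAAA and the half-site GTTAA of hepatocyte nuclear factor 1, searched on both strands.
AFP: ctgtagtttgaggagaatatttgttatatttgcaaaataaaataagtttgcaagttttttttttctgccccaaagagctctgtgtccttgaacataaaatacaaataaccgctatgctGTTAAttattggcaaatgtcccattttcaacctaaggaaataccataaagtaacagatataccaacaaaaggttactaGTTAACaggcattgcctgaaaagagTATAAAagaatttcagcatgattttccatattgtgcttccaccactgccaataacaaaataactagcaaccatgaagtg
TATAAA was found once, at -29, and is in 11.5% of the 35116 promoters. GTTAA was found 3 times, at -132, -54 and -53, the last pair overlapping on opposite strands, and is in 21.9% of promoters. The window holds 1 CG pair and no CACGTG.

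Of the albumin gene family and the regulators of AFP, 18 of 24 listed genes were measured and 4 called in Huh7, beside a background of 10.7%. In Huh7, 2 were higher after knockdown, AFM (1.07, adjusted p = 0.0376), a neighbour of AFP in the albumin family, and ZBTB20 (0.52, adjusted p = 0.0158), a repressor of AFP in the adult mouse liver. CEBPB (-1.08, adjusted p = 0.0253) and FOXA1 (-0.51, adjusted p = 0.0153, limma), liver transcription factors, were lower. The list median was 0.03, against -0.0003 over all genes. In Hep-3B limma called 0 of the 18, beside a background of 0.956% of genes called. An unadjusted p under 0.05 was found there for 11 (limma), and the list median was 0.03. Each of these 4 calls was lost when either Huh7-shLuc array was left out.

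GPC3, a heparan sulfate proteoglycan of the cell surface, was the member that separated the lines most. Probe set 209220_at read 3.55 and 3.93 in Huh7-shKLHL23 arrays and 3.35 and 3.47 in Huh7-shLuc arrays, against 12.62 and 12.71 in Hep-3B-shKLHL23 arrays and 12.46 and 12.49 in Hep-3B-shLuc arrays. All Huh7 values were below the array median, and all Hep-3B values were far above it. Control Huh7 differed from control Hep-3B by -9.07 (SE 0.13, adjusted p = 2.67e-09, limma), or 536-fold. The table gives no detection calls, so whether the Huh7 values exceed the background was not tested and the fold is a ratio of array values. The knockdown differences were 0.33 (adjusted p = 0.170) in Huh7 and 0.19 (adjusted p = 0.568, limma) in Hep-3B. Without Huh7-shKLHL23 replicate 1 the Huh7 difference was 0.52 and was called (adjusted p = 0.0461, limma), at a level still below the array median.

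The other GPC3 probe set, 243243_at, read 3.96 and 4.21 in Huh7-shKLHL23, against 4.11 and 4.09 in Huh7-shLuc, and 5.58 and 5.998 in Hep-3B-shKLHL23, against 5.38 and 6.30 in Hep-3B-shLuc. Huh7 lay below Hep-3B on every array, and the control lines differed by -1.74 (SE 0.26, adjusted p = 0.000908, limma). The knockdown groups overlapped their controls in both lines (differences of -0.01 and -0.05). Among 21 of 22 measured glypicans and heparan sulfate genes, B3GAT3 (0.66, adjusted p = 0.0243) and HSPG2 (0.65, adjusted p = 0.00751) were higher and HS2ST1 (-0.38, adjusted p = 0.0418, limma) lower in Huh7 after knockdown, beside a background of 10.7% of genes called. The list median was -0.01 in Huh7 and 0.02 in Hep-3B. In Hep-3B the background was 0.956% of genes called. SULF2, which removes sulfate groups from heparan sulfate chains, was the 1 called there (0.64, adjusted p = 0.037, limma). It lost that call without either Hep-3B-shLuc array. The HSPG2 call was lost without Huh7-shLuc replicate 1, and those of B3GAT3 and HS2ST1 without either Huh7-shLuc array.

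PEG10, an imprinted gene derived from a retrotransposon, lay far above the array median on all arrays by both of its probe sets. For 212094_at the values were 10.86 and 11.23 in Huh7-shKLHL23, against 11.03 and 10.94 in Huh7-shLuc, and 11.71 and 11.83 in Hep-3B-shKLHL23, against 11.44 and 11.44 in Hep-3B-shLuc. For 212092_at they were 9.87 and 10.27 in Huh7-shKLHL23, against 9.83 and 10.00 in Huh7-shLuc, and 10.86 and 10.88 in Hep-3B-shKLHL23, against 10.79 and 10.78 in Hep-3B-shLuc. Huh7 lay below Hep-3B on every array in both. The knockdown differences were 0.06 and 0.15 in Huh7 and 0.33 and 0.08 in Hep-3B, and none of the 4 was called. Of 15 other imprinted growth genes measured out of 17 listed, GRB10, an adaptor that dampens insulin signalling, was called in Huh7 (-0.73, adjusted p = 0.0245, limma), with a list median of -0.16 and a background of 10.7% of genes called. In Hep-3B limma called 0 of the 15, beside a background of 0.956% of genes, with an unadjusted p under 0.05 for 3 and a median of -0.04. GRB10 differed there by -0.41, and its difference between the lines was not called (adjusted p = 0.597, limma). The GRB10 call was lost without any 1 of the 4 Huh7 arrays.

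SALL4, a zinc finger transcription factor of embryonic stem cells and fetal liver, was the member that was higher in Huh7. It read 6.02 and 5.82 in Huh7-shKLHL23 and 5.99 and 6.39 in Huh7-shLuc, against 5.27 and 4.86 in Hep-3B-shKLHL23 and 5.16 and 5.28 in Hep-3B-shLuc. All Huh7 values exceeded all Hep-3B values. The control lines differed by 0.98 (SE 0.17, adjusted p = 0.00235, limma), or 1.97-fold, and this call held in all alternatives run. The knockdown differences were -0.27 in Huh7 (adjusted p = 0.414) and -0.16 in Hep-3B (adjusted p = 0.747, limma). Of 19 of 20 measured SALL family, pluripotency and NuRD genes, 2 were lower in Huh7 after knockdown, beside a background of 10.7% of genes called in either direction and 6.2% lower. They were KLF4 (-1.81, adjusted p = 0.00314, limma), a pluripotency factor, whose call held with each array left out, and SALL1 (-0.57, adjusted p = 0.0192), whose call did not. The list median was 0.00 in Huh7 and -0.04 in Hep-3B. There limma called 0, beside a background of 0.956% of genes, with an unadjusted p under 0.05 for 3. In that line KLF4 differed by -1.03 (adjusted p = 0.0643, limma) and SALL1 by 0.26. The difference between the lines was not called for KLF4 (adjusted p = 0.317) or SALL1 (adjusted p = 0.0575, limma).

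**Figure D2:**
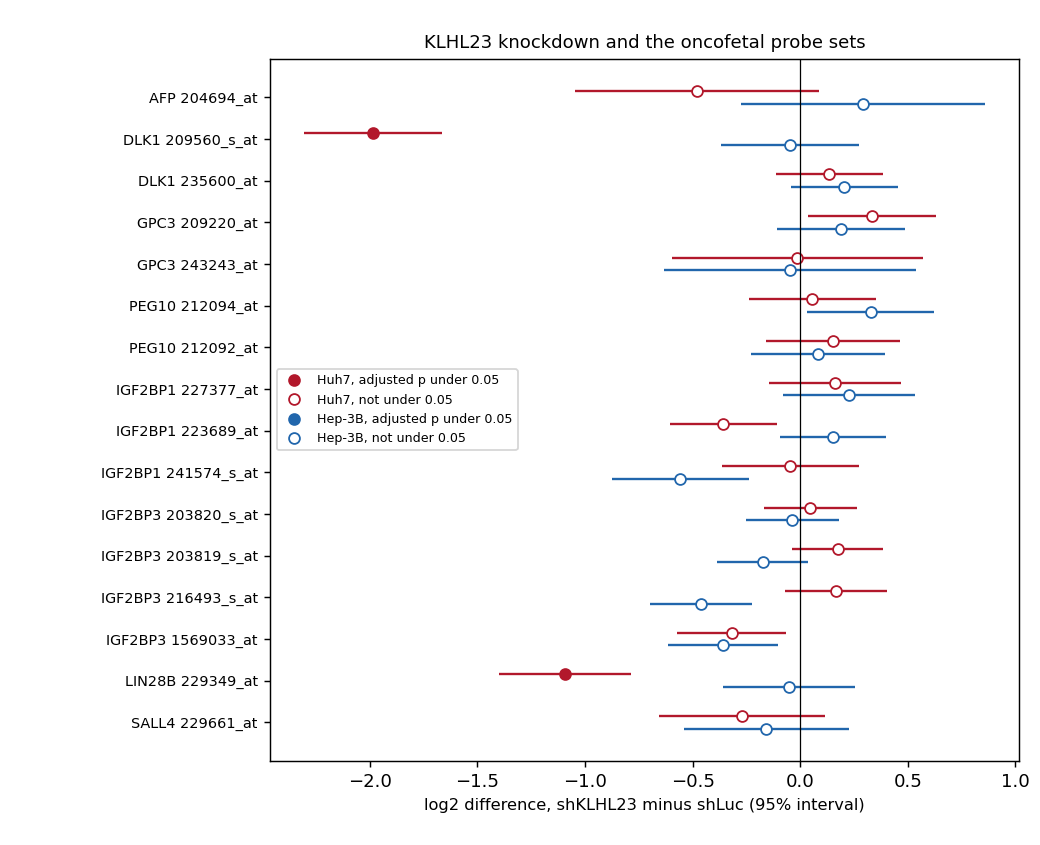
Log2 difference between shKLHL23 and shLuc for the 16 probe sets in Huh7 (red) and Hep-3B (blue), with 95% intervals; filled symbols have an adjusted p under 0.05. The DLK1 209560_s_at point at -1.98 and the LIN28B point at -1.09 are the filled ones, both in Huh7.

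Between the control lines most of the called oncofetal probe sets were lower in Huh7, and several of these belong to the same gene. With 1 probe set per gene, DLK1, GPC3, PEG10 and IGF2BP3 were called lower in Huh7 and SALL4 higher. AFP, LIN28B and IGF2BP1 were not called in that fit. Of the 16 probe sets, 9 were called lower and 1 higher in Huh7-shLuc than in Hep-3B-shLuc, together 6 genes, beside a background of 25.8% of all probe sets called, 12.9% in each direction. The median difference was -0.52, against 0.00 over all probe sets, and the arrays of the lines did not overlap for 14 of the 16, where the background was 62.6%. DLK1 209560_s_at was lower by 2.48 on the log2 scale in Huh7, 5.57-fold (difference -2.48, SE 0.14, adjusted p = 2.5e-06, limma). Of the 4 IGF2BP3 probe sets, 3 were lower, by differences of -0.64 to -1.07 with adjusted p-values of 0.000988 or below (limma). PEG10 was lower by both probe sets (-0.46, adjusted p = 0.0297, and -0.87, adjusted p = 0.00133, limma), although the first call was lost when any control array was left out and with the replicate number as a block. IGF2BP1 was lower by 1 dim probe set (-0.59, adjusted p = 0.0127, limma), a call lost without Hep-3B-shLuc replicate 3 (adjusted p up to 0.106) or Huh7-shLuc replicate 1, and not called by the other 2 (-0.19 and 0.13). AFP (0.03) and LIN28B (0.02) did not pass the test, with 95% intervals of -0.53 to 0.60 and -0.29 to 0.33.

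**Figure D3:**
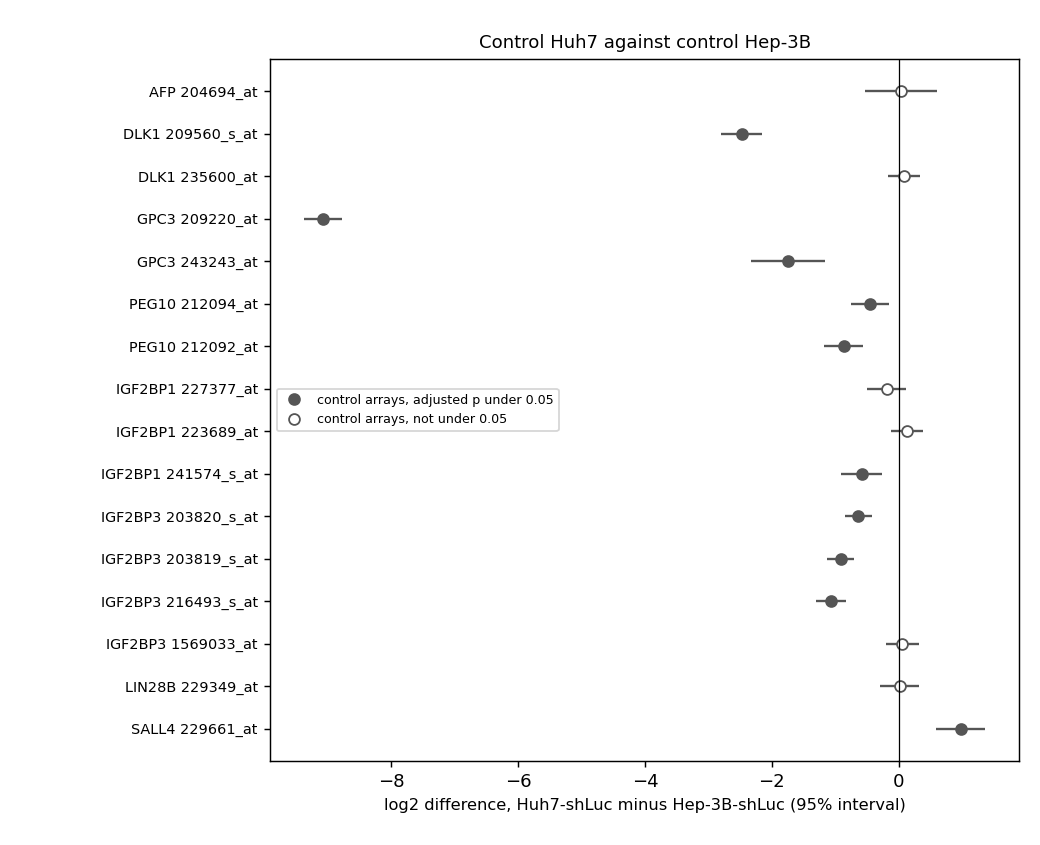
Log2 difference between Huh7-shLuc and Hep-3B-shLuc for the 16 probe sets, with 95% intervals; filled symbols have an adjusted p under 0.05. GPC3 209220_at lies farthest to the left at -9.07, and SALL4 is the filled symbol to the right of 0, at 0.98.

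IGF2, the fetal growth factor ligand, was read only by probe sets shared with INS-IGF2, so transcripts of the 2 genes cannot be told apart. Probe set 202409_at read 8.66 and 9.72 in Huh7-shKLHL23, against 8.80 and 9.06 in Huh7-shLuc, and 11.14 and 10.56 in Hep-3B-shKLHL23, against 11.66 and 11.54 in Hep-3B-shLuc. Probe set 202410_x_at read 5.30 and 5.43 in Huh7-shKLHL23, against 4.99 and 5.14 in Huh7-shLuc, and 6.21 and 5.88 in Hep-3B-shKLHL23, against 6.97 and 7.02 in Hep-3B-shLuc. Probe set 210881_s_at read 4.93 and 4.72 in Huh7-shKLHL23, against 5.04 and 5.01 in Huh7-shLuc, and 5.37 and 5.17 in Hep-3B-shKLHL23, against 6.10 and 6.46 in Hep-3B-shLuc. In all 3, both Hep-3B-shKLHL23 arrays lay below both Hep-3B-shLuc arrays. Over all probe sets, these groups did not overlap, in either direction, for 49.8%.

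In Hep-3B, 2 of the 3 shared IGF2 probe sets were called lower after knockdown. The background was 1.14% of all probe sets called in either direction. The 2 were 202410_x_at (-0.95, SE 0.13, adjusted p = 0.0185, limma, 51.9% of the control mean) and 210881_s_at (-1.01, SE 0.14, adjusted p = 0.0189, limma, 49.7%). The third, 202409_at, differed by -0.75 (adjusted p = 0.279, limma). Both calls were lost without either Hep-3B-shLuc array, without Hep-3B-shKLHL23 replicate 3 and in a fit of Hep-3B alone, with adjusted p-values of up to 0.187, and that of 210881_s_at also without either Huh7-shLuc array. In Huh7 the differences were 0.27, 0.31 and -0.21, and none was called. That of 202409_at was 0.80 without Huh7-shKLHL23 replicate 1 and -0.27 without replicate 3, so its direction rests on 1 array. The effects of the lines differed for 202410_x_at (1.25, adjusted p = 0.0245, limma), a call lost without any 1 of the 4 shLuc arrays or Hep-3B-shKLHL23 replicate 3. The difference was not called for 202409_at (1.01, adjusted p = 0.349) or 210881_s_at (0.81, adjusted p = 0.108). All 3 were lower in control Huh7 than in control Hep-3B, by -2.68, -1.93 and -1.25, each called. Between these lines 25.8% of all probe sets were called, and 12.9% were called lower. Among 14 genes of the insulin-like growth factor axis, all measured, IGFBP6, a binding protein with a preference for IGF2, was called in Huh7 (0.78, adjusted p = 0.0127, limma), with a list median of 0.11 and a background of 10.7% of genes called. In Hep-3B limma called 0 of the 14, beside a background of 0.956% of genes, with an unadjusted p under 0.05 for 3 and a median of -0.10. The IGFBP6 call was lost without either Huh7-shLuc array.

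H19, the maternally expressed non-coding RNA of the same imprinted domain, was read by 2 probe sets shared with MIR675. Probe set 224646_x_at read 4.96 and 6.37 in Huh7-shKLHL23, against 4.87 and 5.25 in Huh7-shLuc, and 4.68 and 4.68 in Hep-3B-shKLHL23, against 4.88 and 5.05 in Hep-3B-shLuc. Probe set 224997_x_at read 4.09 and 4.99 in Huh7-shKLHL23, against 3.996 and 3.80 in Huh7-shLuc, and 3.56 and 3.74 in Hep-3B-shKLHL23, against 3.67 and 3.85 in Hep-3B-shLuc. Replicate 3 of Huh7-shKLHL23 stood above the other 7 arrays in both. The Huh7 differences were 0.61 (adjusted p = 0.375) and 0.64 (adjusted p = 0.150, limma), and without Huh7-shKLHL23 replicate 1 they were 1.31 (adjusted p = 0.0121) and 1.09 (adjusted p = 0.0136). Without replicate 3 they were -0.10 and 0.19 and were not called, so 1 array decided the value.

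**Figure D4:**
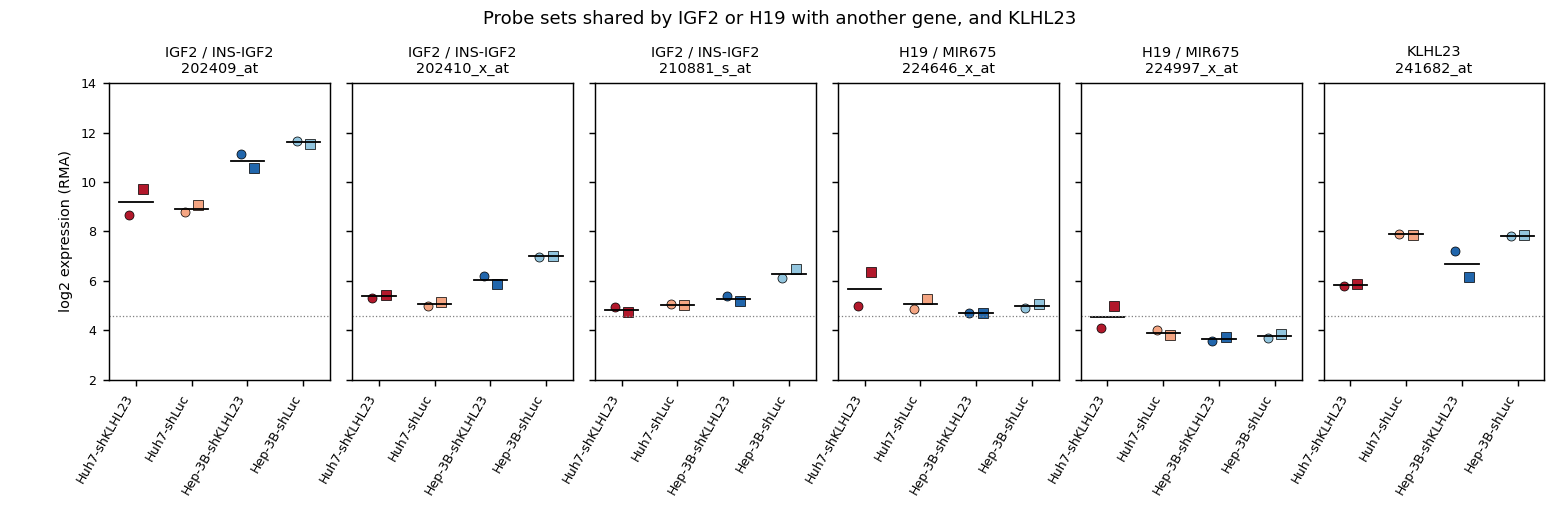
Log2 expression (RMA) on the 8 arrays of the probe sets that IGF2 and H19 share with another gene, and of KLHL23; symbols as in the plot of the 16 probe sets. IGF2 202410_x_at lies at 6.21 and 5.88 in Hep-3B-shKLHL23, against 6.97 and 7.02 in Hep-3B-shLuc.

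Among 23 of 28 measured genes of the adult hepatocyte, 3 were higher and 1 lower in Huh7 after knockdown, beside a background of 4.46% of genes called higher and 6.2% lower. ADH1B (2.16, adjusted p = 0.000811), PCK1 (1.24, adjusted p = 0.00111) and CYP3A4 (0.999, adjusted p = 0.00392, limma), enzymes of alcohol, glucose and drug metabolism, were the higher ones. ADH1B and PCK1 were read by _s_at probe sets and CYP3A4 by an _x_at probe set, types that can hybridise to several transcripts. CPS1, the first enzyme of the urea cycle, was lower (-1.54, adjusted p = 0.000956, limma). These 4 calls held with each array left out in turn. In Hep-3B CYP3A4 was the 1 called (0.83, adjusted p = 0.0259, limma), and it was not called without either Hep-3B-shLuc array. The Hep-3B background was 0.956% of genes called in either direction and 0.718% called higher. The list medians were 0.09 in Huh7 and -0.02 in Hep-3B, against -0.0003 and 0.02 over all genes.

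Of 25 of 27 measured other markers of fetal liver, progenitors and liver tumours, 6 were higher and 5 lower in Huh7 after knockdown, beside a background of 10.7% of genes called. KRT19, a keratin of bile ducts and progenitors, rose by 1.32 (adjusted p = 0.0026, limma) and its call held with each array left out. The list median was 0.06 in Huh7. GOLM1, a Golgi protein raised in liver disease, rose by 1.28 (adjusted p = 0.0117) in Huh7 and by 1.495 (adjusted p = 0.0249, limma) in Hep-3B, where the background was 0.956% of genes in either direction and 0.718% higher, but lost the calls without either control array of the line and without some others. AKR1B10 (1.24), S100P (-0.85), BEX1 (-0.68) and ACSL4 (-0.58) were also called in Huh7, with adjusted p-values of 0.0131 to 0.0409 (limma), and not without either Huh7-shLuc array.

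The genes whose pattern over the 8 arrays was most like that of each varying member were found by Pearson correlation among 2263 genes, as a description in which the 4 groups dominate. For DLK1 they were H4C11 (r = 0.995), PLEKHG4 (0.994) and SELENOI (0.994), and for LIN28B they were KLHL2 (0.994), CCNC (0.992) and VWCE (0.977). For GPC3 they were SH3BGRL, GPC1 and CADPS2 (0.999 each), and for SALL4 they were SH3RF3 (0.983), FAM151A (0.982) and KCNE3 (0.9752). KLHL2, the closest to LIN28B, read 6.46 and 6.89 in Huh7-shKLHL23, against 7.69 and 7.73 in Huh7-shLuc, and 7.68 and 7.69 in Hep-3B-shKLHL23, against 7.83 and 7.72 in Hep-3B-shLuc.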

How the data were processed

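Total RNA of Huh7 and Hep-3B cells with a KLHL23 or a luciferase hairpin was hybridised to Affymetrix arrays, 2 per group. The deposited values are log2 expression per probe set, which the authors made with RMA. The submitters' processing notes name Affymetrix Expression Console 1.2. This method corrects the background and quantile-normalizes the arrays together, so an overall shift of expression between groups is removed, and the number of arrays limits the precision. Groups come from the sample labels.

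Probe sets were named through the platform annotation: 41097 have 1 symbol and 1801 have several. limma 3.58.1 (R 4.3.3) fitted a mean for each of the 4 groups to all 54675 probe sets, with 4 residual and 5.16 prior degrees of freedom, and p-values were adjusted over all of them by Benjamini-Hochberg. On simulated data the pipeline recovered 10.4% of 1.5-fold and 65.7% of 2-fold changes in the Huh7 comparison. In the Hep-3B comparison it recovered 23.9% and 65.7%. Fewer probe sets were changed there than were called in either line, so these shares may differ in the data. A member not called may still differ. For the gene lists, each of 19775 genes was represented by its own probe set with the highest mean, and up to 3 called genes per direction with the largest knockdown difference were named. Genes of like pattern needed an SD of at least 0.5. The members and lists were chosen with earlier results of these data known. Alternatives covered the probe sets tested, the normalization, the spread model, the samples in the fit, the replicate number as a block and leaving out each array. Sequences are from RefSeq (GRCh38.p14), whose promoter table held 5 entries for 4 of the 10 genes.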

Additional observations from a re-analysis of the deposited data

Results flagged for a closer look

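The knockdown effect in Huh7 differed from that in Hep-3B by the test of the difference itself for the following results (limma, adjusted p under 0.05). Among the oncofetal genes these were DLK1 209560_s_at (-1.94) and LIN28B 229349_at (-1.04), both lower after knockdown in Huh7, and the shared IGF2 probe set 202410_x_at (1.25), lower after knockdown in Hep-3B. Among the named genes of the lists they were ADH1B (2.20, adjusted p = 0.0128), PCK1 (1.51, adjusted p = 0.0115), CPS1 (-1.72, adjusted p = 0.0122) and SULF2 (-1.05, adjusted p = 0.0269). Each of these 7 calls was lost without at least 1 of the 8 arrays, and KLHL23 itself was at 65.5% and 31.4% of the control mean in the 2 Hep-3B-shKLHL23 arrays.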

How the results depend on the processing

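With 2 arrays per group, single arrays decide many calls. The count of 2 oncofetal probe sets called in Huh7 was 1 without probe sets whose identifier ends in _s_at or _x_at, which can hybridise to several transcripts. It was 3 with dim probe sets left out or with an intensity trend (IGF2BP1 223689_at added), and 2 to 3 with one array left out, where GPC3 209220_at was added without Huh7-shKLHL23 replicate 1 and AFP without replicate 3. The count of 0 in Hep-3B was 1 with dim probe sets left out, 1 with an intensity trend and robust fit, and 1 with array weights. The count of 2 for the difference between the lines was 1 without the several-transcript probe sets, 1 after further quantile normalization, and 0 to 3 with one array left out. The count of 10 between the control lines was 5 with 1 probe set per gene, 5 without the several-transcript probe sets, and 8 to 10 with one array left out. Replicate differences of knockdown and control correlated at 0.0533 in Huh7 and -0.0348 in Hep-3B. These correlations over all probe sets cannot settle whether arrays of the same replicate number share a batch, and the labels do not say. With the replicate number as a block, 2 were called in Huh7, 0 in Hep-3B, 2 for the difference and 9 between the control lines, where the block removed the call of PEG10 212094_at. KLHL23 itself was called in Hep-3B with the block (adjusted p = 0.0345). Over all probe sets the calls ranged from 545 to 6282 in Huh7 (4643 as reported), from 0 to 1986 in Hep-3B (623), from 2 to 1271 for the difference (510) and from 6457 to 17573 between the lines (14085). DLK1 209560_s_at stayed called in Huh7 under the 16 alternatives that keep it, at -2.20 to -1.77, and LIN28B under all 17, at -1.31 to -0.88. Without the _s_at and _x_at probe sets DLK1 is left with 235600_at, which was not called. No called difference changed sign. Of the 24 list genes called in Huh7 and named by the rule, which leaves out HMGA2 and TRIM71, 7 stayed called with any array left out and 17 did not. The causes were not tested. A fit of only the groups compared could not be made for the difference between the lines, which needs all groups.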
